A study of Rattus norvegicus with 74 samples.

Results

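The miR-29 family was followed in kidney of untreated F344 rats, an inbred strain, from before weaning to old age. The family was taken as the miRNAs of the array named rno-miR-29a, rno-miR-29b or rno-miR-29c, either arm of the hairpin, that were detected on at least 1 array. Of 7 such miRNAs on the array, 6 were members by this rule, out of 311 miRNAs detected on any array and 677 on the array. The members were rno-miR-29a-3p, rno-miR-29b-3p, rno-miR-29c-3p and rno-miR-29c-5p, each detected on all 74 arrays, rno-miR-29a-5p on 35 arrays and rno-miR-29b-5p on 1 array. The seventh, rno-miR-29b-1-5p, was detected on none. Each array held whole kidney RNA of 1 animal, and the arrays covered 36 females and 38 males. There were 4 females at ages 2, 5, 8 and 21 weeks and 5 at 6, 15, 78 and 104 weeks. There were 4 males at 8 and 104 weeks and 5 at the other 6 ages. All animals were of this strain, none received a treatment, and the females had not been matched for stage of the estrous cycle.

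The miR-29 miRNAs act by pairing of their seed, the bases near the 5′ end, to sites in messenger RNAs. Their best known targets encode proteins of the extracellular matrix, among them collagens, elastin and fibrillin, and loss of miR-29 in fibrotic kidney, heart, lung and liver has made the family a standard example of an antifibrotic miRNA group. The hairpins are transcribed in pairs from separate loci, and miR-29b is made at both. Messenger RNA, protein and matrix were not measured on these arrays.

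The mature sequences show how close the members are to each other. They were taken from RefSeq (build GRCr8), which held all 7 miRNAs of the family on the array, and the 3p sequences are printed with the seed, bases 2 to 8 from the 5′ end, in capitals.
rno-miR-29a-3p: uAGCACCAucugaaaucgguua
rno-miR-29b-3p: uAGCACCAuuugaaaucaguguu
rno-miR-29c-3p: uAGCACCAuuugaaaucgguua
rno-miR-29c-5p: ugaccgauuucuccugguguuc
rno-miR-29a-5p: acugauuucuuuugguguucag
The 3p members share 1 seed, and it was carried by 3 of the 693 mature rat miRNAs listed in RefSeq, the ones printed here. Counted from the 5′ end, miR-29a-3p and miR-29c-3p differed at 1 of 22 positions, C10U. MiR-29a-3p differed from miR-29b-3p at 4 positions, C10U, G18A, U21G and A22U, and miR-29b-3p has 1 base more, 23 against 22. How far the probes for one of these near-identical miRNAs also read another was not tested.

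On GRCr8, Mir29a (mature 3p at chr4:60617968-60617989, minus strand) and Mir29b1 (chr4:60618342-60618364, minus strand) are neighbours, with 291 bases between the hairpins. Mir29b2 (chr13:109098882-109098904, plus strand) and Mir29c (chr13:109099412-109099433, plus strand) are separated by 447 bases and lie within the span of LOC102550527, a long noncoding RNA gene. As both loci make the same miR-29b-3p, its signal is their sum. The 5p arms differ between loci: miR-29c-5p comes from the chromosome 13 pair and miR-29a-5p from the chromosome 4 pair. MiR-3556a, miR-3556b and miR-3587 are annotated on the opposite strand of Mir29a, Mir29c and Mir29b1, and their sequences of 18, 20 and 21 bases are exact reverse complements within miR-29a-3p, miR-29c-3p and miR-29b-3p. All 3 were on the array and none was detected on any of the 74 arrays.

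Values are normalized intensities, the total signal of a miRNA on an array divided by the 75th percentile of the 311 expressed miRNAs of that array. They allow a miRNA to be compared between arrays but not with another miRNA. Between 190 and 264 miRNAs were detected per array, and the 75th percentile ranged from 81.2 to 283. The 5 miRNAs listed as kidney tubule markers were detected on all arrays, and of 3 striated muscle miRNAs, 2 were detected on none. In the 2-week male replicate 1, the liver miRNA miR-122-5p stood at 23.6, against a median of 0.0906 over all arrays. It reached 5.82 in the 6-week male replicate 1 and 3.91 in the 5-week male replicate 2. Of 10 slides, 5 carried the animals aged 2 to 8 weeks and 5 the animals aged 15 to 104 weeks, apart from a single female array of 15 weeks found among the younger animals. Among the 2-week females, replicate 3 stood apart, with a 75th percentile of 83.2 against 195 to 243 in the other 3, and with 22 of 166 miRNAs more than 1.5-fold from their group median, where the median array had 5 and the highest 23.

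Every age and sex given here rests on the sample that each scanner file was deposited under. The deposited value table holds the same 74 arrays, each once, but 69 of its columns carry the name of another sample, and 66 the name of another group of age and sex. The 9 columns named for 2 weeks hold 1 array that the scanner files place at 2 weeks, and by those column names miR-29a-3p at 2 weeks would run from 1.52 to 54.0. Read in the order of the table's columns, the arrays go by scanner file label through the females and then the males, each from 2 to 104 weeks, with 0 steps back among 73. All values by age and sex would change if the column names were used instead.

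The first comparison asked whether the members changed with age within each sex. All 4 members detected throughout rose from 2 weeks to adulthood in females and in males, and the 9 arrays of 2 weeks lay below all 65 arrays of later ages for each of them. Over the 8 ages, 4 of the 6 members were called in females and 4 in males, which required an adjusted p under 0.05 in limma's F test with at least 1.5-fold between some pair of ages. The share of all 311 miRNAs called was 36.7% in females and 45.3% in males. The adjusted p-values of the 4 members ran from 3.51e-21 to 1.11e-13 in females and from 1.45e-22 to 6.92e-18 in males. After a normexp background correction miR-29c-5p was not called with age in females (adjusted p = 0.0562). Of all 311 miRNAs, 4.18% had every 2-week array below every later one.

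MiR-29a-3p, from the chromosome 4 locus, was lowest in the 2-week kidneys. In 2-week females its normalized intensity was 2.08, 3.92, 3.24 and 3.03. In 2-week males it was 1.52, 2.62, 2.11, 1.35 and 1.47. By 21 weeks the 4 females stood at 37.4, 36.8, 39.8 and 40.8, and the 5 males at 45.5, 41.1, 44.0, 44.1 and 37.6, so neither sex came near its 2-week range. The rise from 2 to 21 weeks was 3.69 ± 0.14 (log2, SE) in females, a 12.9-fold change, and 4.59 ± 0.14 in males, a 24.1-fold change (adjusted p = 1.84e-19 and 5.74e-23).

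MiR-29b-3p, the product of both loci, also rose in both sexes. Its 2-week values were 0.786, 1.07, 1.06 and 1.0 in females and 0.410, 0.673, 0.550, 0.456 and 0.419 in males. At 21 weeks the females stood at 12.9, 10.3, 13.4 and 14.3. The males stood at 11.3, 28.8, 12.1, 11.8 and 9.50, where replicate 2 stood far above the other males of that age. The rise was 3.70 ± 0.18 (log2, SE), or 13-fold, in females and 4.77 ± 0.21, or 27.4-fold, in males (adjusted p = 5.40e-17 and 7.57e-19). Without the male replicate 2 of 21 weeks it was 4.50 in males.

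MiR-29c-3p, from the chromosome 13 locus, rose in both sexes as well. In 2-week females it measured 1.23, 2.46, 1.98 and 1.86, and in 2-week males 0.803, 1.34, 1.10, 0.669 and 0.766. At 21 weeks the females were at 11.6, 9.74, 12.6 and 12.7 and the males at 11.9, 16.3, 12.0, 12.2 and 9.48. The change was 2.67 ± 0.19 (log2, SE), 6.34-fold, in females and 3.75 ± 0.18, 13.5-fold, in males (adjusted p = 5.30e-13 and 2.80e-18).

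MiR-29c-5p, the other strand of the miR-29c hairpin (formerly miR-29c*), rose with its partner strand. Its values at 2 weeks were 0.194, 0.170, 0.161 and 0.156 in females and 0.121, 0.0880, 0.120, 0.109 and 0.107 in males. At 21 weeks it stood at 0.598, 0.570, 0.638 and 0.636 in females and at 0.679, 0.586, 0.664, 0.658 and 0.629 in males. The rise was 1.85 ± 0.07 (log2, SE), 3.60-fold, in females and 2.57 ± 0.09, 5.93-fold, in males (adjusted p = 5.79e-20 and 1.09e-21). After a normexp background correction the rise was 0.43 in females, which was no longer called (adjusted p = 0.0838), and 0.89 in males, which was.

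Between 2 and 21 weeks, 4 of 6 members were called higher at the older age in each sex, while 14.5% of the 311 miRNAs were called higher in females and 22.5% in males. By size of the difference, miR-29b-3p and miR-29a-3p ranked 1 and 2 of 311 in both sexes. MiR-29c-3p ranked 4 in females and 3 in males, and miR-29c-5p ranked 7 and 4. The median difference of all 311 miRNAs was 0.00 in both sexes. This median is set in part by the floor, since 166 of the 311 were detected on all arrays and those at the floor throughout differ by exactly 0. Cell type markers moved over the same interval. Over it, 28% of the 311 miRNAs in females and 38.6% in males were called in either direction. Of 5 kidney tubule miRNAs, 2 were called in females and 3 in males, with median differences of 0.58 and 1.48 (log2). Of 5 mesenchyme miRNAs, 3 were called in each sex, with medians of -0.85 and -0.97, and of 4 leukocyte miRNAs 2 were called in each sex, with medians of 0.38 and 0.95. In whole kidney RNA fewer cells of a type cannot be told from less RNA per cell, and the part of these markers in the rise of miR-29 was not tested.

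**Figure D1:**
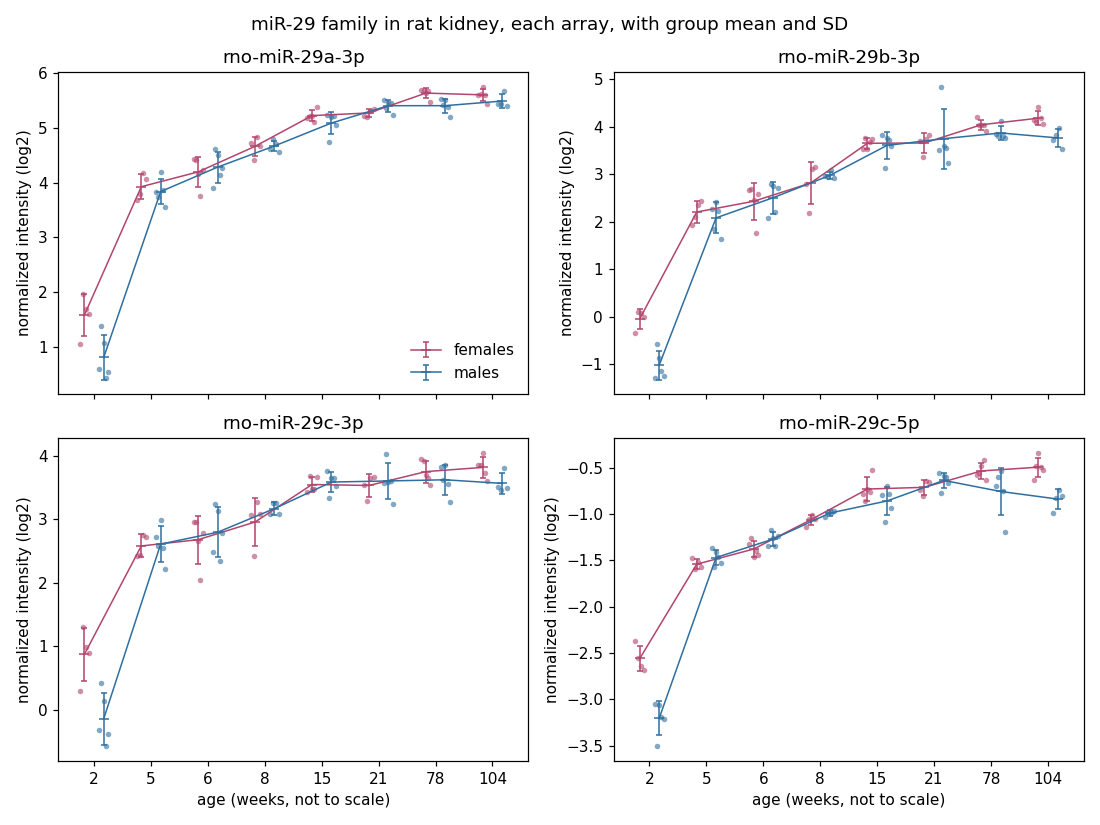
Normalized intensity (log2) of 4 miR-29 members on each of the 74 arrays, by age in weeks, for females and males, with points for arrays and a line and bars for the group mean and SD. For each member the 9 arrays of 2 weeks lie below the 65 arrays of later ages, and 1 male array of 21 weeks stands high for miR-29b-3p at 28.8.

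Each 3p member and miR-29c-5p was read by 2 probes, and both gave a rise of similar size. From 2 to 21 weeks the probes of miR-29a-3p rose by 3.62 and 3.72 (log2) in females and by 4.53 and 4.62 in males. Those of miR-29b-3p rose by 3.71 and 3.70 in females and 4.8 and 4.76 in males. For miR-29c-3p the changes were 2.74 and 2.60 in females and 3.74 and 3.76 in males. For miR-29c-5p they were 1.91 and 1.82 in females and 2.49 and 2.45 in males, the male ones both below the 2.57 of the total signal. No spot of the arrays was marked as saturated, and 315 of 10360 spots of the family were marked as outliers.

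The rise was largest in the first interval, from 2 to 5 weeks. In females miR-29a-3p rose 5.08-fold, miR-29b-3p 4.75-fold, miR-29c-3p 3.27-fold and miR-29c-5p 2.02-fold over this interval. In males the same members rose 8.15-fold, 8.60-fold, 6.75-fold and 3.33-fold. All 4 members were called in each sex, with adjusted p-values up to 1.47e-08, while miR-29c-5p was called in neither after normexp (0.15 and 0.48, log2). At this interval 8.36% of the 311 miRNAs were called higher at 5 weeks in females and 12.2% in males. In log2 units, the 5-week level had covered 55.1% to 64.2% of the rise to 21 weeks in females and 65.0% to 73.4% in males. Arrays of 2 and 5 weeks of the same sex shared 3 slides in females and 5 in males, and within each of these slides every one of the 4 members was higher at 5 weeks. Within slides the smallest change of miR-29a-3p was 2.09 (log2) in females and 2.35 in males.

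After 5 weeks the steps were smaller. At 5, 6 and 8 weeks, miR-29a-3p averaged 15.4 ± 2.46 (SD, n = 4), 18.6 ± 3.27 (n = 5) and 25.5 ± 3.03 (n = 4) in females and 14.5 ± 2.44 (n = 5), 19.8 ± 3.83 (n = 5) and 25.5 ± 1.76 (n = 4) in males. MiR-29b-3p went from 4.66 ± 0.736 at 5 weeks to 7.28 ± 1.99 at 8 weeks in females and from 4.32 ± 0.939 to 7.89 ± 0.444 in males. Neither step from 5 to 6 nor from 6 to 8 weeks was called for any member in either sex. At both steps, neighbouring groups overlapped for miR-29a-3p and miR-29c-3p in each sex and for miR-29b-3p in females. Male miR-29b-3p overlapped from 5 to 6 weeks but not from 6 to 8, with 4.22 to 6.96 against 7.55 to 8.53. For miR-29c-5p there was no overlap at either step in either sex. How many of all miRNAs had no overlap at these steps was not counted. From 6 to 8 weeks in females miR-29c-5p rose by 0.31 (log2), under the required fold (adjusted p = 0.00228 in limma's test). The share of all miRNAs called at these steps was also low, 1.29% from 5 to 6 and 0.643% from 6 to 8 weeks in females and 0.0% and 0.322% in males. Across 2, 5, 6 and 8 weeks together, 4 of 6 members were called in both sexes, beside 24.8% of miRNAs in females and 32.8% in males.

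The step from 8 to 15 weeks was the only later one at which members were called, and in females alone, though the sexes were not compared at this step. In females miR-29b-3p rose from 7.28 ± 1.99 (SD, n = 4) to 12.6 ± 1.01 (n = 5), 1.79-fold, and miR-29c-3p from 7.97 ± 1.85 (n = 4) to 11.8 ± 0.951 (n = 5), 1.51-fold (adjusted p = 0.00161 and 0.0397). MiR-29a-3p and miR-29c-5p passed the adjusted threshold with changes of 1.47-fold and 1.26-fold, below the required 1.5. The share of miRNAs called higher at 15 weeks was 1.61%. The call of miR-29c-3p was lost without any single array of 15 weeks and without 8-week replicate 1 or 2, ranging from 0.41 to 0.70 (log2), whereas that of miR-29b-3p remained in all 9 such runs. After normexp neither was called, at 1.20 for miR-29b-3p and 1.03 for miR-29c-3p (log2, adjusted p = 0.0618 and 0.170), and miR-29c-5p stood at -0.0060. In males the same step measured 0.42 ± 0.15 (log2, SE) for miR-29a-3p, 0.63 ± 0.22 for miR-29b-3p, 0.42 ± 0.19 for miR-29c-3p and 0.13 ± 0.09 for miR-29c-5p, with adjusted p-values of 0.116 or more, and 0.322% of miRNAs were called higher.

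Ages on both sides of this step lay on different slides, so slide and age cannot be told apart for it in males, and the same holds for 2 against 21 weeks. The one link between the slide sets was in females, where the 15-week array that shared a slide with younger animals, replicate 5, measured 41.9 for miR-29a-3p, 13.5 for miR-29b-3p, 12.7 for miR-29c-3p and 0.696 for miR-29c-5p. The other 15-week females ranged from 34.5 to 37.3, 11.5 to 13.7, 10.8 to 12.9 and 0.552 to 0.601. The 8-week females ranged from 21.4 to 28.5, 4.58 to 8.88, 5.34 to 9.68 and 0.455 to 0.495, so for each of the 4 members this array lay above all 8-week females.

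**Figure D2:**
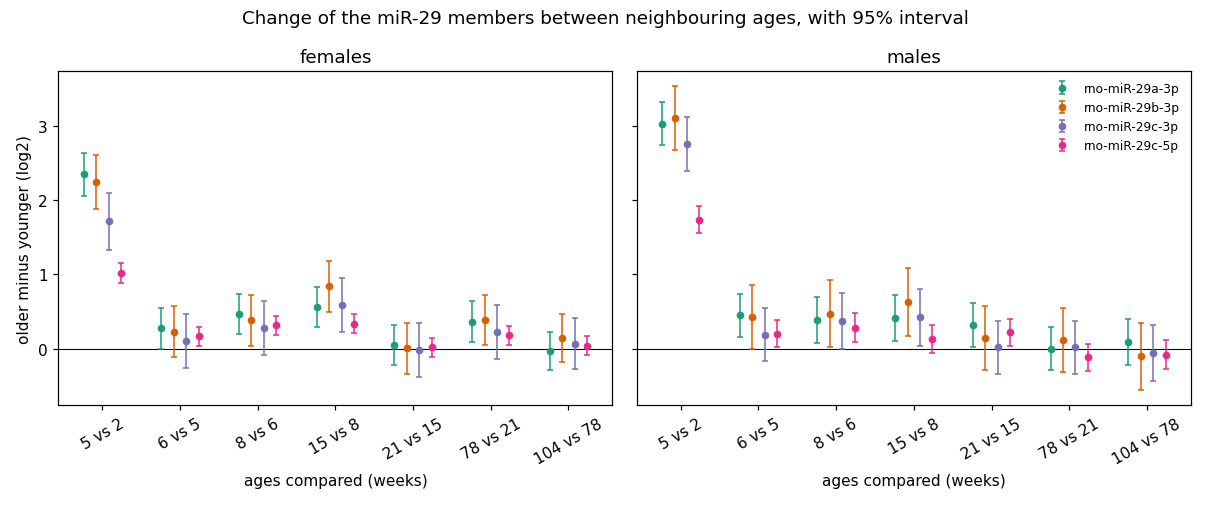
Difference in log2 normalized intensity between neighbouring ages for 4 miR-29 members, females left and males right, with points for the estimate and bars for the 95% interval. The step from 2 to 5 weeks, 1.02 to 2.35 in females and 1.73 to 3.1 in males, stands above the other 6 steps.

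From 15 weeks on, no member was called in either sex. The F test over 15, 21, 78 and 104 weeks called 0 of 6 members in females, beside 8.04% of all miRNAs, and 0 of 6 in males, beside 17.4%. In females miR-29a-3p averaged 37.5 ± 2.73 (SD, n = 5) at 15 weeks, 38.7 ± 1.88 (n = 4) at 21, 49.8 ± 3.1 (n = 5) at 78 and 48.7 ± 3.83 (n = 5) at 104 weeks. For this member the females of 78 and 104 weeks, at 43.2 or more, lay above those of 15 and 21 weeks, at 41.9 or less. The share of all miRNAs that lay apart in this way was not counted. With adjusted p-values of 0.0346 for miR-29a-3p, 0.0346 for miR-29b-3p and 0.00929 for miR-29c-5p, 3 members passed the significance part of the rule in females but not its fold. In males miR-29a-3p averaged 34.3 ± 4.49 (n = 5), 42.5 ± 3.17 (n = 5), 42.5 ± 3.72 (n = 5) and 45.1 ± 4.07 (n = 4) at the same ages, and the adjusted p-values of the 4 members were 0.116 or more.

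Between 21 and 104 weeks the differences were 0.33 ± 0.13 (log2, SE) for miR-29a-3p, 0.52 ± 0.17 for miR-29b-3p, 0.29 ± 0.18 for miR-29c-3p and 0.22 ± 0.06 for miR-29c-5p in females. Of these miR-29c-5p had an adjusted p of 0.0303, at a 1.16-fold change, and miR-29b-3p one of 0.0577. In males they were 0.09 ± 0.15, 0.02 ± 0.22, -0.04 ± 0.19 and -0.20 ± 0.09, with 95% intervals from -0.22 to 0.39, -0.44 to 0.47, -0.42 to 0.34 and -0.39 to -0.01. Females of 21 and 104 weeks shared 4 slides, and on each of them all 4 members were higher at 104 weeks. The differences were 0.21 to 0.44 (log2) for miR-29a-3p, 0.34 to 0.77 for miR-29b-3p, 0.062 to 0.58 for miR-29c-3p and 0.15 to 0.30 for miR-29c-5p. Over all female arrays of these ages, 151 of 311 miRNAs had a difference above 0. The share of miRNAs higher on every shared slide was not counted. The sign for miR-29b-3p, miR-29c-3p and miR-29c-5p in males turned under other scalings, with slide or scan day as a block, or without single arrays. None was called, beside 3.22% of miRNAs in females and 13.8% in males. The single steps called no member either, beside shares of 0.322% from 15 to 21, 2.57% from 21 to 78 and 3.54% from 78 to 104 weeks in females and 1.93%, 11.3% and 1.29% in males.

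MiR-29a-5p, the passenger arm of the miR-29a hairpin, could be followed only by detection. It was detected on 0 of 9 arrays at 2 weeks, 5 of 27 at 5 to 8 weeks and 30 of 38 at 15 to 104 weeks. At 15 to 104 weeks that was 16 of 19 females and 14 of 19 males. Where detected, it measured 0.00919 to 0.0356, around the floor of 0.0171 to which low values were raised before the fit, so its fitted differences carry little information. In females it was not well above background on any array of 2 weeks and was detected on all of 21 weeks, and no fold is given for values this close to the floor. MiR-29b-5p was detected on 1 female array of 78 weeks, at 0.0274, and no other.

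Ratios of members on the same array were compared, to see whether they rose in equal measure, and no test of them passed its adjusted threshold. From 2 to 21 weeks the mean log2 ratio of miR-29a-3p to miR-29c-3p differed by 1.03 ± 0.06 (SE) in females and 0.84 ± 0.12 in males, and all arrays of 21 weeks lay above all arrays of 2 weeks in both sexes. The ratio of miR-29b-3p to miR-29c-3p differed by 1.04 ± 0.11 and 1.02 ± 0.19, again with no overlap. The ratio of miR-29a-3p to miR-29b-3p differed by -0.01 ± 0.12 and -0.18 ± 0.30. Relative to the 2-week mean, male replicate 2 of 21 weeks lay at -1.32 for this ratio, the other males of that age at 0.03 to 0.17. The same array was the lowest of its group for miR-29a-3p over miR-29c-3p, at 0.38, and the highest for miR-29b-3p over miR-29c-3p, at 1.70. Between the arms of the miR-29c hairpin, the 3p to 5p ratio differed by 0.82 ± 0.27 in females and 1.18 ± 0.28 in males.

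Exact two-sided permutation tests were run on 4 such pairs, each sex and 2 intervals, 16 in all. Of these, 8 had an unadjusted p under 0.05, and after Benjamini-Hochberg adjustment none passed, the lowest adjusted p being 0.0635. For miR-29a-3p over miR-29c-3p from 2 to 21 weeks the exact p was 0.0286 in females, the smallest that 4 against 4 arrays allow, and 0.00794 in males, the smallest that 5 against 5 allow. When outlier spots were left out, 3 of the 16 passed. Between 21 and 104 weeks the largest differences were in females, 0.24 ± 0.05 for miR-29b-3p over miR-29c-3p (exact p = 0.0159) and -0.19 ± 0.08 for miR-29a-3p over miR-29b-3p (exact p = 0.0317), both with an adjusted p of 0.0635.

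**Figure D3:**
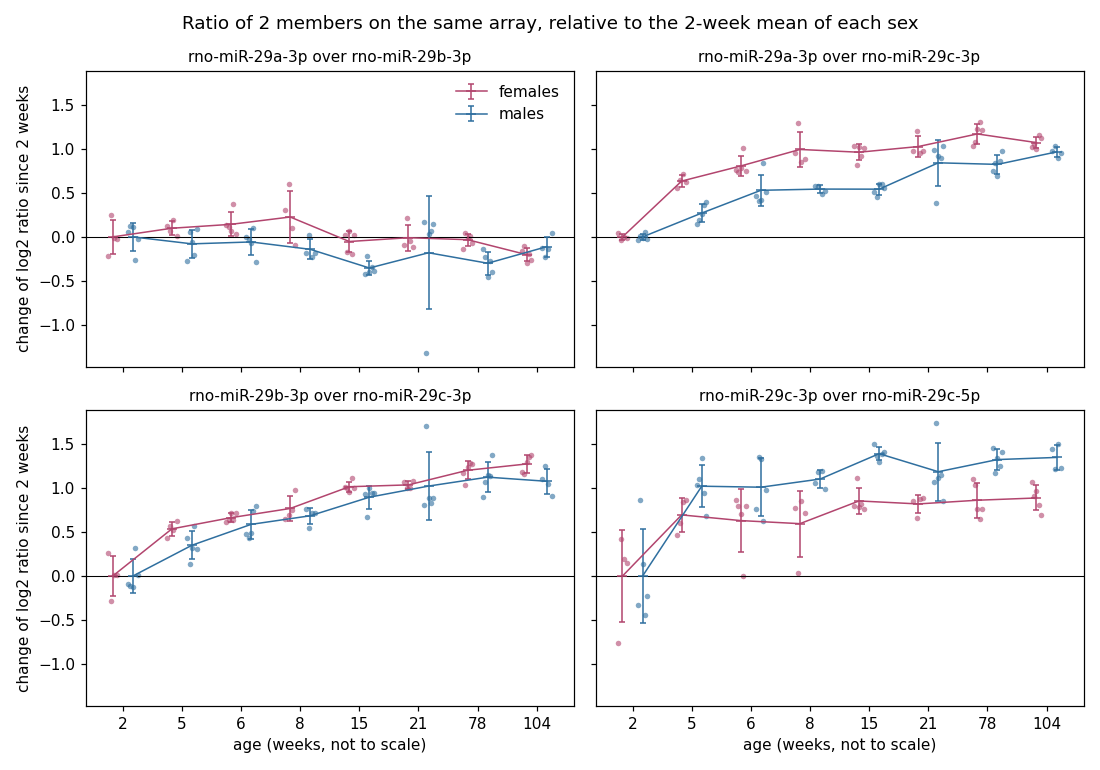
Log2 ratio of 2 miR-29 members on the same array, relative to the 2-week mean of that sex, by age in weeks, with points for arrays and a line and bars for the group mean and SD. Ratios over miR-29c-3p stood about 1 above their 2-week mean at 21 weeks (1.03 and 0.84 for miR-29a-3p, 1.04 and 1.02 for miR-29b-3p). At 21 weeks miR-29a-3p over miR-29b-3p stood at -0.01 in females and -0.18 in males, where replicate 2 lay at -1.32. In males this ratio stood at -0.35 at 15 weeks and -0.30 at 78 weeks.

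Over the 16 groups of age and sex, the mean log2 values of any 2 of the 4 members correlated at 0.994 to 0.997, a description that rests mainly on the distance between 2 weeks and the other ages. Within groups, where age and sex are removed, the deviations of the 74 arrays correlated at 0.902 between miR-29a-3p and miR-29c-3p, 0.838 between miR-29b-3p and miR-29c-3p and 0.685 between miR-29a-3p and miR-29b-3p. The deviations of miR-29c-5p correlated with those of the 3p members at 0.0936 to 0.175, and with its own 3p arm at 0.163. These values share the array, its scaling factor and, for the 3p members, near-identical sequence.

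The second comparison asked whether males and females differed at each age. At 2 weeks all 4 members were lower in males, and at no other age was any member called. The difference, male minus female, was -0.77 ± 0.14 (log2, SE) for miR-29a-3p, -0.98 ± 0.20 for miR-29b-3p, -1.02 ± 0.18 for miR-29c-3p and -0.65 ± 0.08 for miR-29c-5p, or 1.71-fold, 1.97-fold, 2.02-fold and 1.56-fold lower (adjusted p = 5.35e-05, 0.000211, 3.22e-05 and 7.82e-09). The sexes did not overlap for miR-29b-3p, where the lowest female stood at 0.786 and the highest male at 0.673, nor for miR-29c-5p, with 0.156 and 0.121. They overlapped for miR-29a-3p and miR-29c-3p, where female replicate 3, at 2.08 and 1.23, lay below male replicate 2, at 2.62 and 1.34. Of the 311 miRNAs, 3.22% were called higher in females at 2 weeks, and 8.36% had sexes that did not overlap.

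Both sexes of 2 weeks were present on 4 slides, and on each of them the male array was lower for all 4 members. Within slides the difference ran from -1.16 to -0.46 (log2) for miR-29a-3p, -1.34 to -0.94 for miR-29b-3p, -1.48 to -0.62 for miR-29c-3p and -0.68 to -0.51 for miR-29c-5p. The probes of each miRNA gave -0.78 and -0.77 for miR-29a-3p, -0.96 and -0.99 for miR-29b-3p, -0.98 and -1.04 for miR-29c-3p and -0.49 and -0.56 for miR-29c-5p. For miR-29c-5p both probes gave less than the 1.5-fold of a call and a smaller difference than the -0.65 of the total signal. Its 2-week probe means were 0.0494 and 0.121 in females, where the total averaged 0.170. In males they were 0.0352 and 0.0816, which add to more than the 0.109 that the total averaged. The reason was not tested. Leaving out the male array with the high miR-122-5p gave -0.72, -0.92, -0.97 and -0.69, all called. The other 2-week males also lay above the 2-week females for miR-122-5p, at 0.397 or more against 0.107 or less. Without female replicate 3, which stood apart, the differences were -0.94, -1.08, -1.21 and -0.58, and without male replicate 2 miR-29c-5p was at -0.57. In both runs miR-29c-5p was under the required fold and the others were called.

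Calls of the 2-week difference were lost in the normexp run and, for miR-29c-5p, also with another scaling. The normexp run averaged median spot signals in place of the total signal, so background correction alone was not tested. After normexp with an offset of 50 the direction was the same, at -0.28, -0.55, -0.52 and -0.41 (log2), but 0 of the 4 were called (adjusted p = 0.327, 0.151, 0.151 and 0.0370, the last at a fold under 1.5). With quantile normalization miR-29c-5p was at -0.48 (adjusted p = 8.79e-05), also under the required fold. The paper's kind of pairwise test was also run, on the floored log2 values used here in place of the paper's own values. By this test 2 of the 4 were called, miR-29b-3p and miR-29c-5p (adjusted p = 0.0318 for both). MiR-29a-3p and miR-29c-3p were not (adjusted p = 0.225 and 0.127). The paper itself lists all 4 as higher in females at 2 weeks, and the reason for the different count was not tested.

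**Figure D4:**
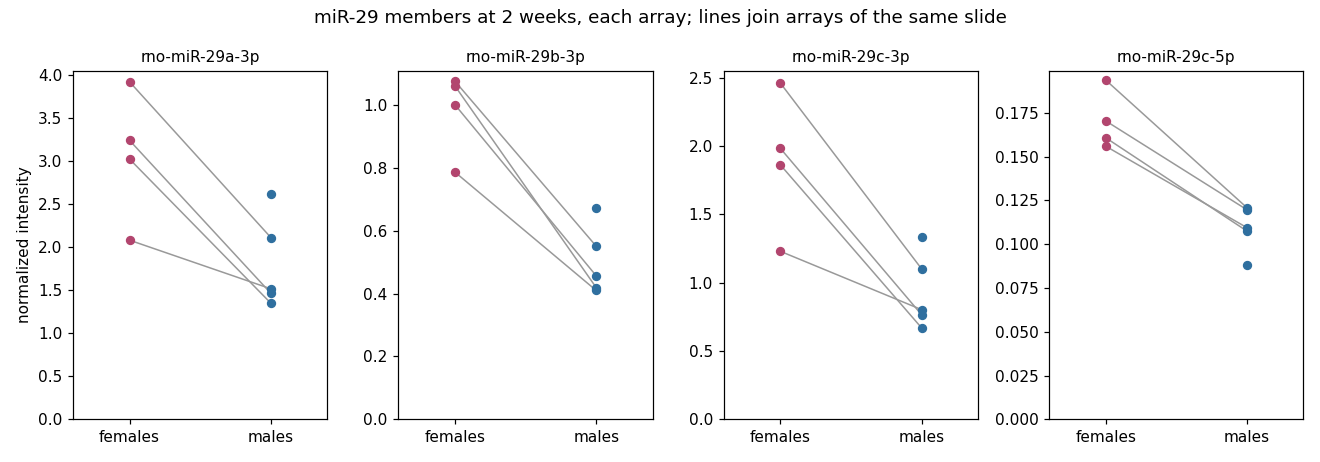
Normalized intensity of 4 miR-29 members on the 9 arrays of 2 weeks, females left and males right, with grey lines that join arrays of the same slide. On all 4 shared slides the male lies below the female, and the sexes do not overlap for miR-29b-3p and miR-29c-5p.

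Cell type markers were set beside this difference too. The summed level of the 5 kidney tubule miRNAs ranged from 37.6 to 41.0 in 2-week females and from 29.1 to 33.5 in 2-week males, without overlap, and 0 of the 5 was called between the sexes. The 5 mesenchyme miRNAs summed to 26.7 to 31.0 in females and 28.6 to 31.7 in males, again with 0 called. The liver miRNA miR-122-5p, detected on all 2-week arrays, ranged from 0.0774 to 0.107 in females and from 0.397 to 23.6 in males, and was called higher in males by 3.50 (log2). Over all later groups the tubule sum ranged from 36.8 to 62.7 and the mesenchyme sum from 15.6 to 23.0. At 2 weeks the tubule sum of males lay below all later groups. That of 2-week females lay below all later females, at 41.8 or more, but within the range of the 104-week males, 36.8 to 43.5. The mesenchyme sum was high at 2 weeks in both sexes. The part of these in the miR-29 differences was not tested.

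From 5 to 21 weeks the sexes were close. The differences, male minus female, lay between -0.14 and 0.21 (log2) for all 4 members over these 5 ages, and the lowest adjusted p was 0.356. The share of all miRNAs called was 0.0% at 5, 0.322% at 6, 1.29% at 8, 3.54% at 15 and 4.82% at 21 weeks. At 5 weeks the 95% interval was from -0.38 to 0.20 for miR-29a-3p, -0.52 to 0.27 for miR-29b-3p and -0.34 to 0.40 for miR-29c-3p, which holds none of their 2-week estimates.

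At 78 and 104 weeks miR-29c-5p was lower in males by a small amount. It averaged 0.690 ± 0.0403 (SD, n = 5) in females and 0.598 ± 0.0977 (n = 5) in males at 78 weeks, and 0.710 ± 0.0508 (n = 5) and 0.560 ± 0.0413 (n = 4) at 104 weeks. The differences were -0.22 ± 0.08 (log2, SE) and -0.34 ± 0.08, with adjusted p-values of 0.0338 and 0.000870, at 1.17-fold and 1.27-fold, below the 1.5 that a call required. At 104 weeks the lowest female stood at 0.646 and the highest male at 0.600. MiR-29b-3p also had no overlap at 104 weeks, with 18.2 ± 1.89 (SD, n = 5) in females and 13.7 ± 1.81 (n = 4) in males, a difference of -0.42 ± 0.20 (log2, SE) at an adjusted p of 0.138. The share of all miRNAs with sexes that did not overlap was 19.3% at 104 weeks, and the share called was 6.75% at 78 and 6.11% at 104 weeks. MiR-29a-3p differed by -0.11 ± 0.14 and miR-29c-3p by -0.25 ± 0.18 at 104 weeks, and both signs turned under other scalings. Such scalings moved group medians against each other by up to 0.32 (log2), near the size of the miR-29c-5p differences.

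**Figure D5:**
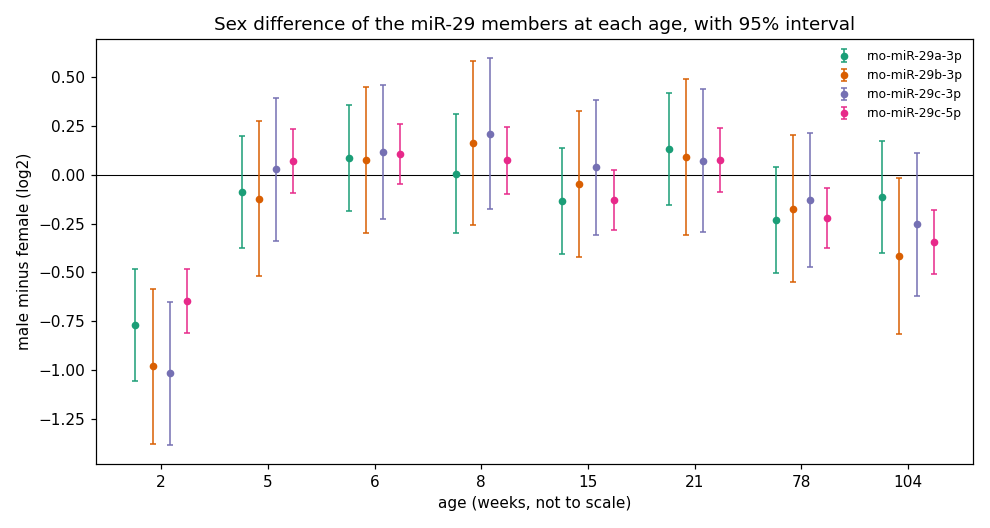
Male minus female difference in log2 normalized intensity of 4 miR-29 members at each age in weeks, with points for the estimate and bars for the 95% interval. The 2-week differences run from -1.02 to -0.65 and their intervals exclude 0, whereas from 5 to 21 weeks all estimates lie between -0.14 and 0.21.

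The difference between the sexes in the course over age was tested as an interaction in the joint fit of all 74 arrays. It was called for 4 of 6 members, with adjusted p-values of 0.00776 for miR-29a-3p, 0.0141 for miR-29b-3p, 0.00254 for miR-29c-3p and 3.73e-07 for miR-29c-5p, beside 27.7% of all miRNAs. After normexp none of them was (adjusted p = 0.706 to 0.708), and with the 75th percentile taken over all miRNAs miR-29a-3p was not (adjusted p = 0.214). The rise from 2 to 21 weeks was larger in males by 0.90 ± 0.20 (log2, SE), 1.07 ± 0.28, 1.09 ± 0.26 and 0.72 ± 0.12 in the same order (adjusted p = 0.000751, 0.00479, 0.00159 and 3.23e-06), beside 12.5% of miRNAs that passed. For the rise from 2 to 5 weeks the differences were 0.68 ± 0.20, 0.86 ± 0.28, 1.04 ± 0.26 and 0.72 ± 0.12, of which miR-29b-3p did not pass (adjusted p = 0.0617), beside 4.82%.

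Without the 2-week arrays the interaction held for miR-29c-5p only among the members (adjusted p = 0.00292), and the 3p members had adjusted p-values of 0.669 to 0.849, beside 22.8% of miRNAs. Between 21 and 104 weeks miR-29c-5p changed by 0.22 in females and -0.20 in males, a difference of -0.42 ± 0.12 (log2, SE; adjusted p = 0.00638), beside 19.0% of miRNAs that passed this test. For the 3p members this difference was -0.25 ± 0.20, -0.51 ± 0.28 and -0.32 ± 0.26, with adjusted p-values of 0.236 or more. The sexes shared slides at 104 weeks in 4 cases, and miR-29c-5p was lower in the male on each, by 0.19 to 0.51. At 104 weeks the leukocyte miRNAs summed to 3.32 to 3.55 in females and 5.56 to 7.67 in males, and the tubule miRNAs to 51.3 to 62.7 and 36.8 to 43.5. Their part in the difference was not tested.

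Other miRNAs with roles in renal fibrosis were set beside the family from a list of 10 profibrotic and 6 antifibrotic miRNAs. Of the profibrotic list, 9 were on the array and 5 of these were detected, and miR-155-5p was not analysed here. From 2 to 21 weeks, 3 of the 5 were called in females, 1 higher and 2 lower, and 4 of the 5 in males, 2 higher and 2 lower, beside 28% and 38.6% of all 311 miRNAs called in either direction. Their median difference was -0.20 (log2) in females and 0.41 in males, against 0.00 for all miRNAs, a median set in part by miRNAs at the floor. MiR-214-3p and miR-199a-5p, made in mesenchymal cells, fell by 1.35 ± 0.12 and 0.85 ± 0.11 (log2, SE) in females and fell by 1.55 ± 0.11 and 0.97 ± 0.10 in males. MiR-192-5p, a tubule miRNA studied in diabetic kidney, rose by 0.99 ± 0.08 and 1.55 ± 0.08. MiR-21-5p, which increases in injured kidney, rose from 18.1 ± 2.03 to 32.3 ± 2.38 (SD, n = 5) in males. In females it went from 21.8 ± 2.76 to 30.4 ± 3.99 (SD, n = 4), with an adjusted p of 0.00203 but under the required fold.

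All 6 antifibrotic miRNAs, the miR-200 family with miR-141 and miR-429, and miR-26a, were detected. From 2 to 21 weeks 1 of the 6 was called in each sex, miR-200a-3p, a repressor of ZEB transcription factors, which rose by 0.61 ± 0.11 (log2, SE) in females and 0.95 ± 0.10 in males. Their median difference was 0.31 and 0.45, beside 1.85 to 4.77 for the miR-29 members. Between 21 and 104 weeks none of the 6 was called in either sex. In males their median difference was -0.39, against -0.05 for all miRNAs, and 3 of them passed the adjusted p but not the fold, miR-429 at -0.44, miR-200b-3p at -0.46 and miR-200a-3p at -0.33 (adjusted p = 1.38e-05, 5.83e-05 and 0.0115). In that interval the profibrotic list had 0 of 5 called in females and 5 of 5 in males, beside 3.22% and 13.8% of all miRNAs. In males miR-21-5p was higher by 1.02 ± 0.20, miR-199a-5p by 0.75 ± 0.11 and miR-214-3p by 0.60 ± 0.12. MiR-192-5p and miR-382-5p, the latter near the floor, differed by -0.80 ± 0.09 and -0.73 ± 0.27 in males. In females miR-21-5p was higher by 0.52 ± 0.12 (log2, SE), with an adjusted p of 0.0035 but under the required fold.

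Outside the family, the miRNAs whose means over the 16 groups were most like the mean of the 3p members were searched among 162 miRNAs detected on all arrays. The first 5 were miR-7a-5p (Pearson r = 0.966), miR-425-5p (0.949), miR-101a-3p (0.931), miR-23a-3p (0.916) and miR-146a-5p (0.913), given as a description over 16 groups. From 2 to 21 weeks the difference was 1.20 (log2) in females and 1.46 in males for miR-7a-5p, 0.88 and 1.91 for miR-101a-3p, and 0.46 and 0.60 for miR-425-5p. At 2 weeks the difference of males from females was -0.72 for miR-101a-3p and between -0.22 and -0.04 for the others.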

How the data were processed

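The data were 74 single-colour (Cy3) Agilent rat miRNA arrays, 1 array per animal, from whole homogenized kidney. Per the file headers, the authors quantified scanned images with Agilent Feature Extraction 10.7.3.1. The deposited scanner files hold spot intensities and, for each miRNA, a total gene signal, summed over its probes after background subtraction and not yet normalized; an undetected miRNA carries 0.1. The deposited value table was not used for values: each of its 74 columns matched the scaled signal of 1 array within 0.001 (log2), each array once, but 5 matched the array of their own sample and 8 an array of their own age and sex. Samples were therefore taken as the scanner files were deposited.

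Signals were divided by the 75th percentile of the 311 expressed miRNAs on each array, set to a common floor of 0.0171 and taken to log2. Limma 3.58.1 (R 4.3.3) was fitted to all 311 miRNAs with Benjamini-Hochberg adjustment over them, within each sex for age and in 1 fit of 16 groups for sex and interaction. A call required an adjusted p under 0.05 and a 1.5-fold difference; the interaction required only the adjusted p. Each age and sex was a group, taken from the labels. Animals were separate, but arrays of a slide were not independent, and the slide correlation was 0.210 in females and 0.115 in males. Ratios of 2 members were compared with exact permutation tests (scipy 1.17.1). The fit was tested on simulated data. The members and the marker and fibrosis lists were chosen with earlier results of these data known, and named miRNAs were the members, the listed miRNAs and the 5 most alike by Pearson correlation over group means. The alternatives were other floors, scalings, backgrounds, filters, tests and blocks, and leaving out each array. The interaction without 2 weeks, its single contrasts and differences within slides were chosen after seeing the data. The number of arrays limits the precision.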

Additional observations from a re-analysis of the deposited data

Results flagged for a closer look

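Of 64 groups of a member, sex and age, 6 held an array set apart from the rest of its group by a gap that is large for the group's range, and chance alone would give such a gap in about 5% of groups. In 78-week females, miR-29a-3p was lowest in replicate 6, at 44.4 against 50.1 to 52.0 in the others. In 104-week males, replicate 3 was highest for both miR-29a-3p, at 51.1 against 42.3 to 43.5, and miR-29c-3p, at 14.1 against 10.99 to 11.4. MiR-29b-3p was highest in replicate 3 of the 104-week females, at 21.5 against 16.8 to 18.1, in replicate 2 of the 21-week males, at 28.8 against 9.50 to 12.1, and in replicate 4 of the 78-week males, at 17.5 against 13.6 to 14.3.

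The sexes differed in how far the members changed. Between 2 and 21 weeks the change in males exceeded that in females by 0.90 (log2) for miR-29a-3p, 1.07 for miR-29b-3p, 1.09 for miR-29c-3p and 0.72 for miR-29c-5p (adjusted p = 0.000751, 0.00479, 0.00159 and 3.23e-06 in limma's test of the difference). Between 21 and 104 weeks the difference for miR-29c-5p was -0.42 (adjusted p = 0.00638).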

How the results depend on the processing

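Outside the runs that left out an array, 569 values for single members kept direction and side of the threshold, 11 became weaker, 2 stronger and 10 changed sign, the cause not being tested. Among 15 to 104 weeks in females, the members called went from 0 to 1 with the 75th percentile over miRNAs detected on all arrays, 1 with it over all miRNAs and 3 with no fold threshold. At 104 against 21 weeks in females they went from 0 to 1 with no fold threshold. With normexp, calls at neighbouring ages in females went from 6 to 3, calls between the sexes from 4 to 0, the interaction from 4 to 0 and unequal changes of 2 members from 0 to 3. Calls between the sexes were 2 with the paper's kind of pairwise test on these log2 values and 8 with no fold threshold. The interaction called 1 member without 2 weeks, and 3 unequal changes passed with outlier spots left out. In males at 104 against 21 weeks, miR-29b-3p was -0.0064 with slide as a fixed block and -0.030 with scan day. MiR-29c-3p there was 0.28 with the percentile over miRNAs detected on all arrays, 0.26 with quantile normalization and 0.029 with normexp, and miR-29c-5p was 0.12 with that percentile. Male minus female at 104 weeks, miR-29a-3p was 0.079 with that percentile, 0.035 with the percentile over all miRNAs and 0.030 with quantile normalization, which gave 0.069 for miR-29c-3p. These scalings moved group medians against each other by up to 0.32 (log2).

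Leaving out each array in turn, 4 members remained called with age, among 2 to 8 weeks and from 2 to 21 weeks in each sex, and 0 among 15 to 104 weeks and from 21 to 104 weeks. Calls at neighbouring ages ranged from 5 to 7 in females and 4 to 5 in males, calls between the sexes from 3 to 4, the interaction from 3 to 4 (3 without replicate 4 of the 2-week females) and unequal changes were 0. In males at 104 against 21 weeks, miR-29b-3p ranged from -0.11 to 0.29 and miR-29c-3p from -0.13 to 0.066.

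Animals of the same replicate number did not deviate together (mean r = -0.05 over 28 pairs of arrays of the same age and opposite sex, 0.012 for pairs with other numbers). The replicate block gave 4 members called with age in each sex, 4 calls between the sexes and 4 interactions, and moved calls at neighbouring ages in females from 6 to 5. It could not be used in the exact tests, and slide as a fixed block could not be fitted for 2 against 21 or 8 against 15 weeks in males.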
